A study of Mus musculus with 10 samples.

Results

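Slow and fast cycling stem cells of the mouse intestine were compared on 4 of the 10 arrays of the series. The 4 arrays were chosen by their sample labels: all hold sorted epithelial cells with a high Lgr5 reporter level, 2 with a low Ki67 reporter level and 2 with a high one. The labels name 2 mouse alleles: Lgr5-EGFP-ires-CreERT2, in which the Lgr5 promoter drives a green fluorescent protein, and Ki67-TagRFP, in which a red fluorescent protein is joined to the carboxy end of Ki67 at its own locus. Every group was sorted on both colours, so all groups share both reporters, and no treatment is named. The other 6 arrays hold cells with a medium Lgr5 reporter level, 4 with high and 2 with low Ki67, and are used here to estimate the spread between arrays and to show where the Lgr5-high comparison differs. The groups are called Ki67-high and Ki67-low by their reporter, since the labels give a reporter level and not a measured division rate. The labels give no age, sex or region of the intestine, and do not say whether replicates are separate animals or pools. The spread behind each p-value is thus that of these samples and may be of technical origin. The Lgr5 allele is known to be silent in many crypts, so that sorted cells come from the crypts that express it.

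Crypt base columnar cells are the Lgr5-expressing stem cells at the bottom of intestinal crypts. They are wedged between Paneth cells, divide often, depend on Wnt signalling, and give rise to absorptive cells and to the goblet, Paneth, enteroendocrine and tuft cells of the secretory lineages. Lgr5 is a receptor for R-spondins, which strengthen Wnt signals. Ki67 protein is made in S phase, G2 and mitosis and is broken down after division, so its level tells how recently and how far a cell has gone through the cycle. The genes of replication are switched on at the start of S phase by E2F factors, and those of G2 and mitosis later by complexes that bind the cell cycle genes homology region (CHR) of their promoters.

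RNA levels were measured on Affymetrix arrays with probes along whole mouse transcripts, 1 sample on each, and the deposited values were read as log2 levels. A level below is the log2 value of 1 gene on 1 array, and a difference is the mean of the Ki67-low arrays minus that of the Ki67-high arrays, so that a difference of 1 is a 2-fold change if the log base is 2. Levels of 4 arrays are given in the order Ki67-high replicate 1, Ki67-high replicate 2, Ki67-low replicate 1, Ki67-low replicate 2. In bulk samples, fewer cells of a type and less RNA per cell cannot be told apart.

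The sorted gene and the reporter genes were looked at first. Lgr5 (probe set 10372503) measured 9.39, 9.38, 10.02 and 10.43. Both Ki67-low arrays lay above both Ki67-high arrays, and the difference of 0.84 ± 0.16 (SE; 2 and 2 arrays) was larger than the distance between the 2 arrays of either group but did not pass the test over all genes (limma adjusted p = 0.598). Mki67 (probe set 10568714), the gene behind the Ki67 reporter, measured 10.19, 10.18, 10.06 and 10.10. The Ki67-low arrays were the lower ones, by 0.11 ± 0.13 (SE), which is less than the error of the difference. The sort was made on the fused protein, and the messenger RNA of the same gene separated the groups far less than Lgr5 did.

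Markers of the sorted cell type and of other cell types were read next, without a detection call, so that levels of different genes cannot be ranked. Epcam, the adhesion protein used to sort intestinal epithelium, lay between 11.39 and 11.54 on the 4 arrays, Cdh1 between 11.14 and 11.29, and Vil1 between 10.44 and 10.56. The 25 measured genes of the epithelial identity list had a median difference of 0.024. The defining marker of leukocytes, Ptprc, lay between 4.50 and 5.13, the T cell gene Cd3e between 4.12 and 4.59, the fibroblast gene Col1a1 between 4.28 and 4.35, and the endothelial gene Pecam1 between 2.77 and 2.96. The widest difference between the Ki67 groups among these genes was that of Cd3e, -0.23, with overlapping arrays. The mean level of the 43 immune genes was 4.11 and 3.96 on the Ki67-high arrays and 3.98 and 3.99 on the Ki67-low arrays. That of the 29 stromal, endothelial and red cell genes was 3.64 and 3.58 against 3.55 and 3.64.

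Genes of the sex chromosomes set 1 array apart. The Y-linked translation factor gene Eif2s3y measured 3.41 on Ki67-high replicate 1 and 8.08, 8.23 and 7.99 on the other 3 Lgr5-high arrays. The Y-linked demethylase genes Kdm5d (3.69 against 7.06, 7.20 and 7.0) and Uty (2.53 against 6.98, 7.23 and 6.82) showed the same pattern. Xist, the RNA of the inactive X chromosome, measured 11.60, 10.58, 9.28 and 10.63. Ki67-high replicate 1 thus had the 3 Y-linked genes near the bottom of the scale, while the other 3 arrays had both them and Xist at high values. The share of cells from each sex in each sample was not tested, and results that rest on sex-linked genes were also computed without the genes of these chromosomes.

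Most genes differed little between the Ki67 groups. Over 18820 genes the median absolute difference was 0.088, and 95% of genes lay within 0.324. Between single arrays, the 2 Ki67-high arrays differed from each other by a median of 0.0947 and the 2 Ki67-low arrays by 0.125. The 4 differences of a single Ki67-low from a single Ki67-high array had medians from 0.113 to 0.125, above the first of these values and not above the second. Standard errors of the difference had a median of 0.128, and the median 95% confidence interval reached 0.286 to either side, which is 1.22-fold. Differences under that size could not be told from 0 for a typical gene with 2 arrays a side. An exact permutation test of 2 arrays against 2 could not give a two-sided p below 0.333, so the model fitted to all 10 arrays carries the tests.

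In that fit 1 of 18820 genes, 0.00531%, passed a limma adjusted p of 0.05, and it was higher in Ki67-low cells. Without adjustment, 853 genes (4.53%) had a p under 0.05, 449 higher (2.39%) and 404 lower (2.15%). At least 1.5-fold higher in Ki67-low cells were 107 genes, 0.569%, and at least 1.5-fold lower 56 genes, 0.298%. For a 2-fold difference the counts were 17 (0.0903%) and 4 (0.0213%). The 17 include the Y-linked Eif2s3y, Kdm5d and Uty, whose differences of 2.37, 1.73 and 2.27 were 0.0322, 0.0426 and 0.0449 without Ki67-high replicate 1, and the 4 include Xist (-1.13, and -0.618 without that array). Differences lay above 0 for 48% of genes and below 0 for 52%. The comparison between Ki67-low and Ki67-high cells at medium Lgr5, which has 2 and 4 arrays, called 674 genes, 3.58%, of which 499 (2.65% of those tested) rose and 175 (0.93%) fell in Ki67-low cells. There 253 genes (1.34%) were at least 2-fold higher and 6 (0.0319%) at least 2-fold lower. The median standard error there was 0.111, close to that at high Lgr5.

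Genes whose 2 groups of arrays did not overlap were common. Both Ki67-low arrays lay above both Ki67-high arrays for 3430 genes, 18.2% of all tested, and below both for 3798 genes, 20.2%. These percentages are the background against which each list is read. The gap, the distance from the lowest array of the higher group to the highest array of the lower group, was at least 0.2 for 366 higher genes (1.94%) and 367 lower genes (1.95%), and at least 0.5 for 39 (0.207%) and 27 (0.143%). Non-overlap alone was therefore frequent among small differences, while a wide gap was rare in both directions.

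Replicate consistency was described with pairs of arrays that share no array. Across the 18820 genes, the difference of Ki67-low replicate 1 from Ki67-high replicate 1 correlated with that of replicate 2 from replicate 2 at r = 0.194 and rho = 0.124. The crossed pairs gave r = 0.204 and rho = 0.136. Genes are not independent replicates, and both pairs share the probes and the array design. The sign was the same in both pairs for 53.3% of genes, and for 54.1% in the crossed pairs. Consistency depended on level: among the 4705 genes with the lowest levels r was 0.0109, and among the 4705 with the highest levels it was 0.269. The crossed pairs gave 0.0568 and 0.298.

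The genes with the largest differences in 1 pair kept their sign more often than not. Of the 200 genes with the largest positive difference between Ki67-low replicate 2 and Ki67-high replicate 2, 165 were above 0 in the other pair, with a median there of 0.274 against 0.79 in the ranking pair. Of the 200 most negative, 121 were below 0 in the other pair, with a median of -0.0957 against -0.639. Ranking by the replicate 1 pair gave 138 of 200 and 136 of 200. The crossed pairs gave 124 and 145 of 200 when ranked by Ki67-low replicate 1, and 172 and 129 when ranked by Ki67-low replicate 2. Over all genes the sign was the same for 53.3%, and for 54.1% in the crossed pairs. Genes that stood out in 1 pair thus had the same sign in the other pair more often than not, at a much smaller size.

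**Figure D1:**
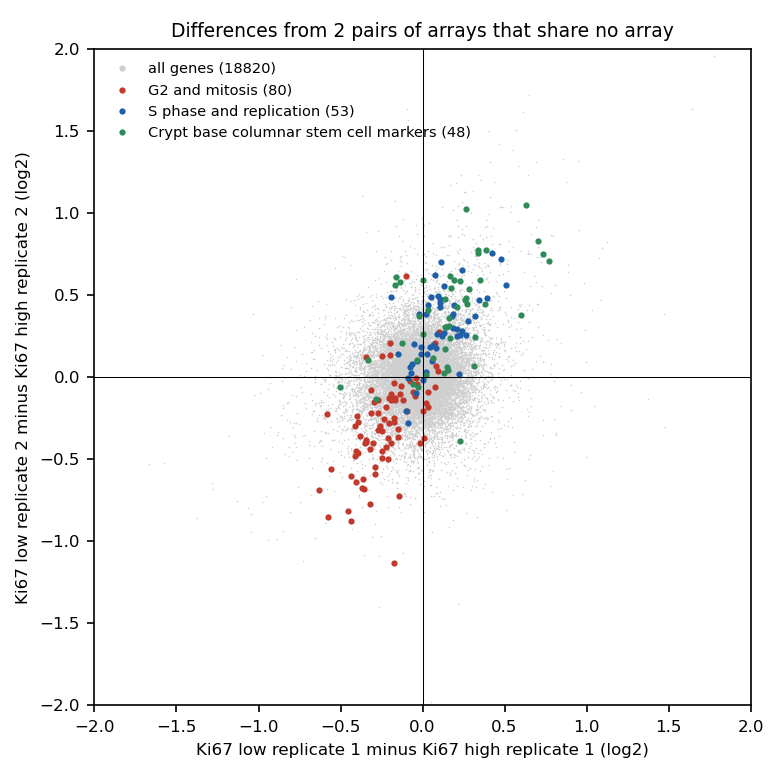
Each point is 1 gene, placed by its difference (log2) between Ki67-low and Ki67-high replicate 1 on the horizontal axis and between the replicates 2 on the vertical axis, with 9 genes outside the axes. Over all 18820 genes the 2 pairs correlate weakly (r = 0.194), while most of the 80 G2 and mitosis genes (red) lie low in both pairs and most of the 53 S-phase genes (blue) and 48 stem cell markers (green) lie high in both.

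The mitotic programme was lower in the Ki67-low fraction of Lgr5-high cells. Of 80 measured members, 73 had a difference below 0, and for 60 of them, 75%, both Ki67-low arrays lay below both Ki67-high arrays, against 20.2% of all genes. The median difference was -0.245, which is 1.19-fold lower. Without adjustment, 35 members lower and 0 higher had a limma p under 0.05, against 2.15% of all genes lower, and 0 members passed with p-values adjusted over all genes. The mean level of the list was 8.09 and 8.04 on the Ki67-high arrays and 7.86 and 7.76 on the Ki67-low arrays. Both Ki67-low arrays thus lay below both Ki67-high arrays on the list's mean, with replicate 2 the lower of them.

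The roles within mitosis differed in size. All 11 kinesins, the motor proteins that build the spindle and move chromosomes, lay lower without overlap, with a median of -0.35. Among genes of the kinetochore and spindle 22 of 26 did so (median -0.27), among mitotic kinases and cyclins 12 of 16 (-0.26), among cytokinesis genes 4 of 5 (-0.35), and among genes of the anaphase-promoting complex and mitotic exit 5 of 8 (-0.20). Condensin subunits, topoisomerase and associated factors were the mixed group, with 6 of 14 lower without overlap, 1 higher and a median of -0.076. The differences between these roles were not tested.

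Cenpe, the kinesin that moves chromosomes to the metaphase plate, measured 8.22, 8.15, 7.66 and 7.59. Cenpf, a kinetochore protein, measured 8.0, 8.02, 7.43 and 7.17. Aspm, which organises spindle poles, measured 7.67, 7.58, 7.04 and 6.89. In all 3 the Ki67-low arrays were the lower ones and the gap between groups was larger than the distance between the arrays of either group, with differences of -0.56 ± 0.12, -0.71 ± 0.18 and -0.66 ± 0.15 (SE). Kif23, the kinesin of the central spindle, measured 9.45, 9.43, 9.04 and 8.95. Ect2, the exchange factor that starts cytokinesis, measured 9.39, 9.37, 9.04 and 8.97. These are the members with the smallest unadjusted p-values of the list, 0.00119 to 0.00262, and with adjustment over all genes none passed.

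Other members did not share the difference. Top2a, the topoisomerase that untangles sister chromosomes, measured 10.02, 9.94, 9.99 and 9.93, and its groups overlapped. Mybl2, a transcription factor that acts on both S-phase and mitotic genes, had the highest difference of the list at 0.26, with overlapping arrays. Both were chosen after their values were seen. Pimreg, a mitotic protein that is in none of the lists, had the lowest unadjusted p-value among all genes that lay lower. It measured 5.0, 4.77, 3.95 and 3.94, a difference of -0.94 ± 0.13 (SE; limma adjusted p = 0.253), and was also chosen after its values were seen.

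**Figure D2:**
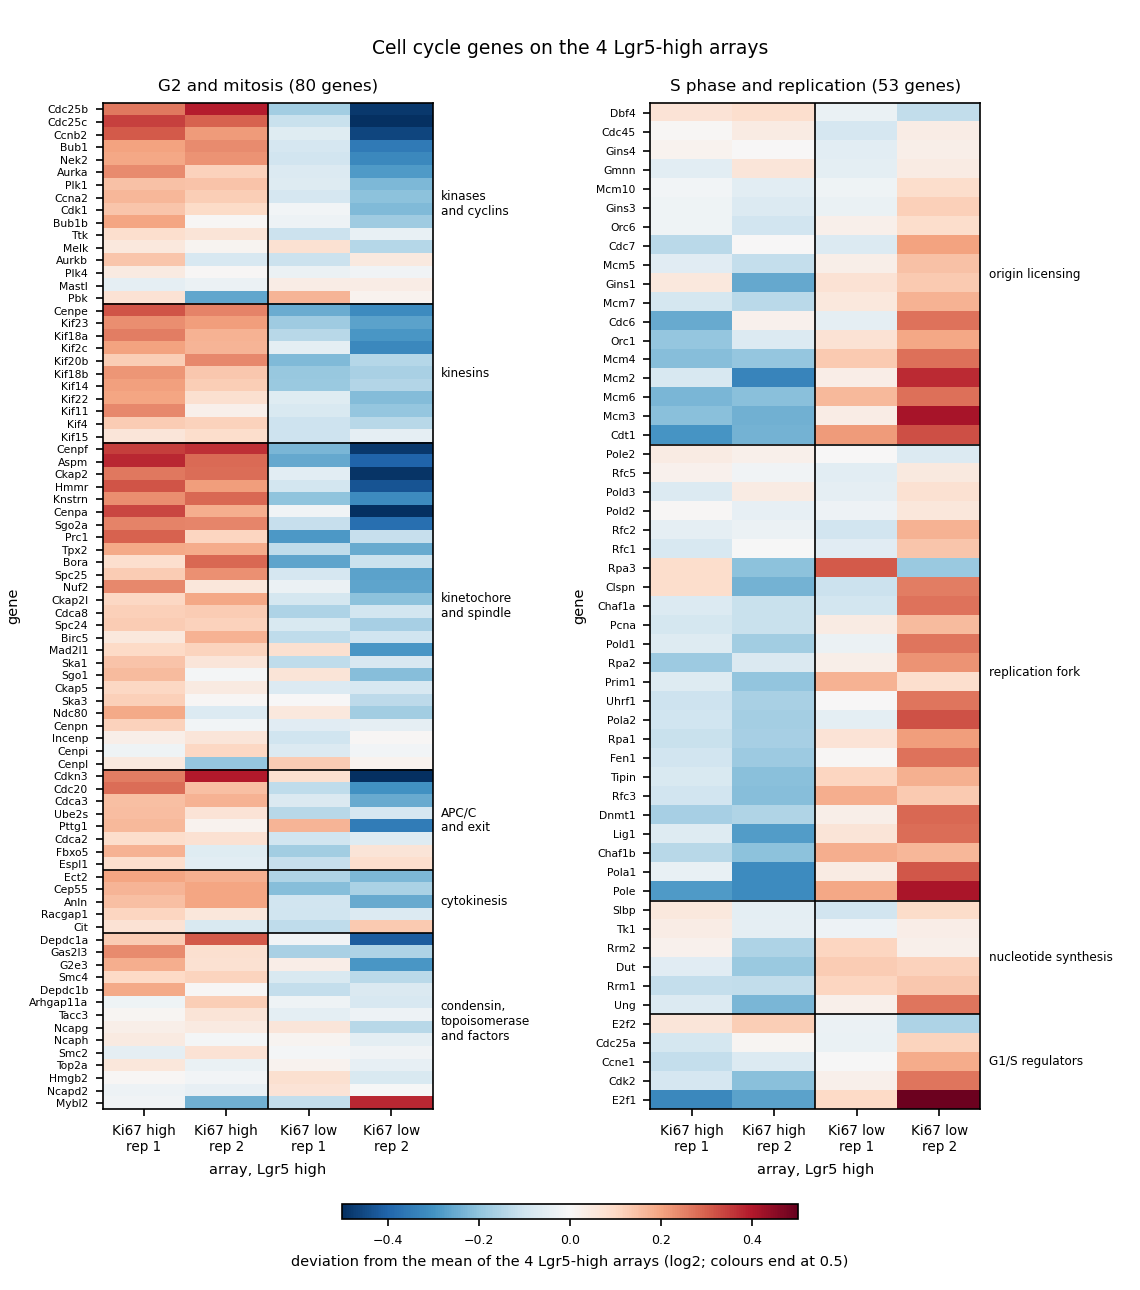
Each row is 1 gene and each column 1 Lgr5-high array, and the colour gives the deviation (log2) from the gene's mean over the 4 arrays, red above and blue below, for 80 G2 and mitosis genes (left) and 53 S-phase genes (right), grouped by role. On the left the Ki67-high columns are mostly red and the Ki67-low columns mostly blue, on the right the order is turned, and Ki67-low replicate 2 has the strongest colours in both panels.

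The promoters of the G2 and mitosis genes carry the letters of the CHR element, and the sequences around those letters are shown for the 6 members with the smallest p-values among those that have a match. Promoter sequences were taken from RefSeq (build GRCm38.p6) and run from 250 bases before to 50 bases after each annotated start, and 68 of the 80 members had at least 1. Both strands were searched for TTTGAA and TTCGAA. Capitals mark the match, which reads TTCAAA where the element lies on the other strand, and each window is written 5′ to 3′ in the direction of the gene.
Aspm: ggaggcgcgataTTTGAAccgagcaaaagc
Kif23: ctgattggcctgTTTGAAatgcgccgggcg
Ect2: gagagagcgactggattttTTTGAAtcgga
Cenpf: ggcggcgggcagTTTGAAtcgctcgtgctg
Cdc25b: ccgctgttatttTTCGAAtatataaggagg
Cep55: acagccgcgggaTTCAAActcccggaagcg
The windows lie at chr1:139454767-139454796 on the plus strand (Aspm), chr9:61946780-61946809 on the minus strand (Kif23), chr3:27153829-27153858 on the minus strand (Ect2), chr1:189688067-189688096 on the minus strand (Cenpf), chr2:131186943-131186972 on the plus strand (Cdc25b) and chr19:38054996-38055025 on the plus strand (Cep55). In each of the 6 the match starts within the first 40 transcribed bases of the annotated transcript. Cdc25b, a phosphatase that activates the mitotic kinase, and Cep55, which acts in the last step of cytokinesis, carry the element as TTCGAA and in reverse.

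A match was found in 53 of 72 promoters of the G2 and mitosis list, 73.6%, against 16.4% of the 18141 promoters of all genes tested and 19.2% of the 32851 promoters of the table. The 50 members with a match had a median difference of -0.293 at high Lgr5, and 39 of them lay lower without overlap. The 18 members with a promoter but no match had a median of -0.195, and 11 lay lower without overlap. Over all genes tested, the 2804 with a match had a median of -0.008 and the 11935 without one of -0.007. Across all genes the medians with and without the letters were nearly equal, and the difference between members with and without them was not tested. A match is a description of letters and does not show that a factor binds there.

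Genes of S phase and replication lay the other way. Of 53 measured members 45 had a difference above 0, and 32, 60.4%, lay higher in Ki67-low cells without overlap, against 18.2% of all genes. The median difference was 0.224, or 1.17-fold higher. Without adjustment, 17 members higher and 0 lower had a limma p under 0.05, against 2.39% of all genes higher, and 0 passed with adjustment over all genes. The mean level of the list was 7.86 and 7.82 on the Ki67-high arrays and 7.97 and 8.11 on the Ki67-low arrays. Ki67-low replicate 2 lay highest, and the median was 0.14 without it and 0.278 without replicate 1 of the same group.

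The roles had similar medians. Genes of the replication fork had a median of 0.26 with 15 of 24 higher without overlap, origin licensing genes 0.19 with 10 of 18, nucleotide synthesis genes 0.19 with 4 of 6, and regulators of the step into S phase 0.19 with 3 of 5. Cdt1, which loads the replicative helicase at origins, measured 8.06, 8.12, 8.57 and 8.68. The helicase subunit genes Mcm4 (8.38, 8.40, 8.73 and 8.87) and Mcm3 (7.95, 7.92, 8.20 and 8.57) were likewise higher on both Ki67-low arrays. Pole, the catalytic subunit of the leading-strand polymerase, measured 7.45, 7.42, 7.93 and 8.14. E2f1, the factor that switches these genes on, measured 6.62, 6.67, 7.04 and 7.43. The groups overlapped in none of the 5, and the differences ran from 0.41 ± 0.09 for Mcm4 to 0.60 ± 0.18 for Pole (SE).

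The letters bound by E2F factors were searched in the same promoter set, since the list is defined by that step of the cycle. The letters searched were TTGGCGC as well as the variants TTCCCGC plus TTCGCGC plus TTGCCGC, on both strands, where overlapping matches on opposite strands count separately, and capitals mark a match in the direction of the gene. Shown are the 6 members with the smallest p-values among those with a match.
Cdt1: tgcgcggaatccGCGGGAActacctttttg
Mcm3: taaacttccgtgGCGGGAAaacttgggaag
Mcm6: agccggaggcgcGCGCGAAgtggcagcgcg
Cdk2: ggccagggaaacGCGGGAAggaggggcggg
Chaf1b: ggcctgcggcgcGCGGGAAgctgcgggctg
Rpa2: ggctgtcccttcGCGGGAAggagtttgtgg
They lie at chr8:122568021-122568050 on the plus strand (Cdt1), chr1:20820276-20820305 on the minus strand (Mcm3), chr1:128359664-128359693 on the minus strand (Mcm6), chr10:128705044-128705073 on the minus strand (Cdk2), chr16:93883915-93883944 on the plus strand (Chaf1b) and chr4:132768311-132768340 on the plus strand (Rpa2). Mcm6, another subunit of the helicase, holds 5 matches in its promoter, 4 of them in 100 bases upstream of the start (chr1:128359731-128359830, minus strand), where 2 copies of 1 run of letters each hold a match on either strand.
Mcm6 upstream: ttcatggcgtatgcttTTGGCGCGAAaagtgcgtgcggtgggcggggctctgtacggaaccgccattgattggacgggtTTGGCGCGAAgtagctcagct

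E2F letters were found in 34 of 56 promoters of the S-phase list, 60.7%, against 12.9% of the promoters of all genes tested and 22.2% of those of the G2 and mitosis list. CHR letters were found in 21.4% of the S-phase promoters. The 30 S-phase members with E2F letters had a median difference of 0.24, and 19 lay higher without overlap, while the 16 without them had a median of 0.15 and 9 lay higher. Over all genes tested, the 2183 with E2F letters had a median of 0.004 and the 12556 without them of -0.009. The lists were drawn up by cell cycle function, so their promoter letters are no separate evidence. Members without the letters had medians of the same sign as those with them, 0.15 for S phase and -0.195 for mitosis. Whether the letters bear on the direction of a difference was not tested.

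Other cell cycle genes were closer to the background. Of 28 measured histone genes that are made with replication, 21 lay below 0, with a median of -0.12. Lower without overlap were 10, 35.7%, against 20.2% of all genes. H2bc18 measured 8.51, 8.56, 8.15 and 8.28 and H2bc4 10.11, 10.14, 10.01 and 9.41, without overlap, while the list's mean level was 8.10 and 8.09 on the Ki67-high arrays and 8.07 and 7.90 on the Ki67-low arrays, and its median was 0.0043 without Ki67-low replicate 2. Histone messengers end without a poly(A) tail and belong to families of near-identical copies, so single histone values are uncertain. Inhibitors of cyclin-dependent kinases and other genes of cell cycle exit did not lie higher as a list, with a median of -0.022 over 44 members. Without overlap, 8 lay higher and 11 lower, 18.2% and 25%, against 18.2% and 20.2% of all genes. Cdkn1b, which encodes the inhibitor p27, measured 9.16, 9.20, 8.99 and 8.92 and lay lower by 0.22 ± 0.11 (SE). Phlda3, a target of p53, measured 5.13, 5.19, 4.33 and 4.74, and Lin37, a subunit of the complex that represses cell cycle genes in resting cells, 7.34, 7.33, 7.17 and 6.99. The stress gene Gadd45a lay the other way at 7.62, 7.64, 7.72 and 7.85.

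The list of G1 cyclins and their kinases, which also holds E2f3, Ccnc, Ccnh and Cdk7, had a median of 0.072 over 9 genes. Higher without overlap were 4, 44.4%, against 18.2% of all genes, and 0 were lower. Ccnd3 (5.89, 5.99, 6.12 and 6.17) lay higher on both Ki67-low arrays, Ccnd2 (10.88, 10.72, 10.64 and 10.74) overlapped, and Cdk4 lay between 11.30 and 11.43 on all 4 arrays. Cdk6, the other kinase of these cyclins, measured 9.94, 9.99, 9.92 and 10.36, with Ki67-low replicate 2 alone above the rest. Genes of the DNA damage response had a median of 0.075 with 10 of 27 higher without overlap, 37% against 18.2% of all genes, and 2 lower. That median was 0.00819 without Ki67-low replicate 2 and 0.185 without Ki67-high replicate 1. Atm, the kinase that senses double-strand breaks, measured 7.81, 7.74, 7.91 and 8.20. Hells, a chromatin remodeller of replicating cells, measured 7.60, 7.51, 7.82 and 7.90.

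**Figure D3:**
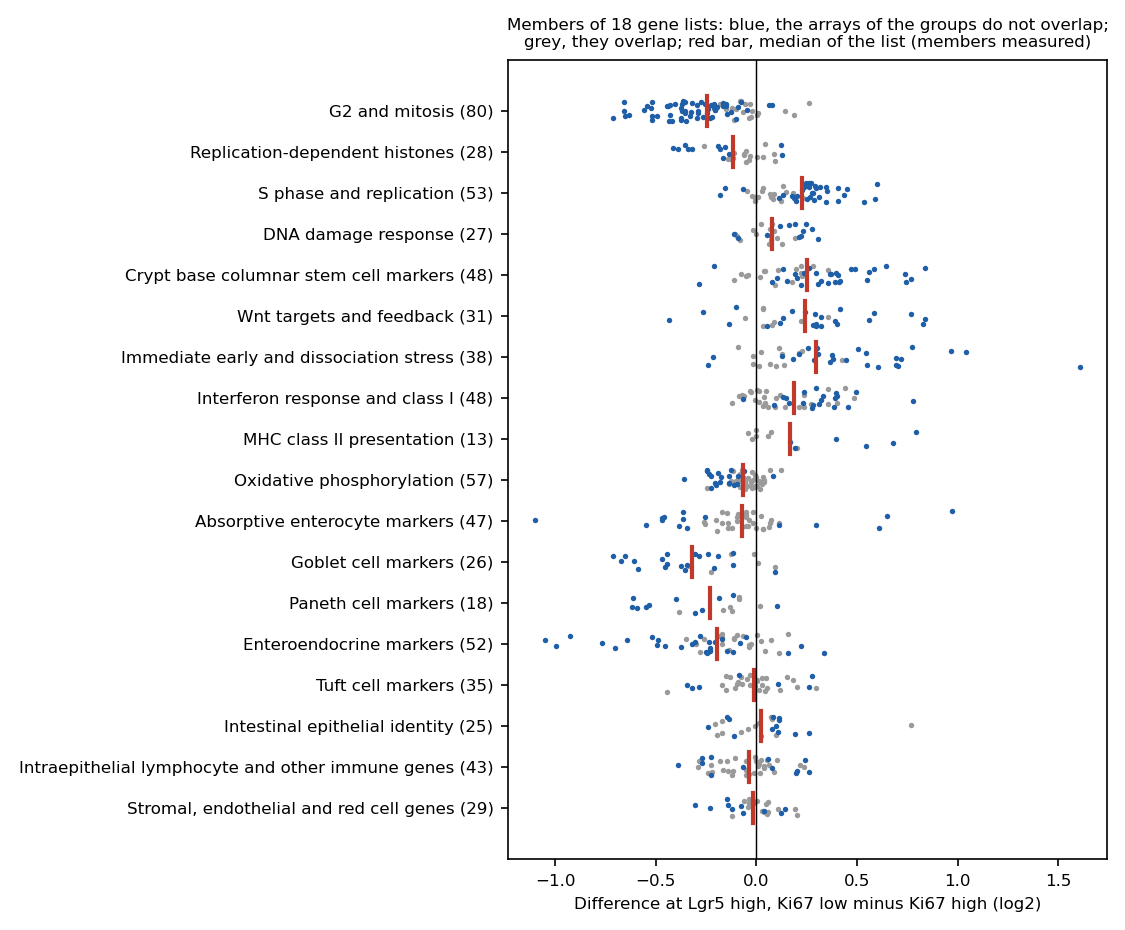
Each point is 1 measured member of a gene list, placed by its difference (log2, Ki67 low minus Ki67 high at high Lgr5), blue where the arrays of the groups do not overlap and grey where they do, with a red bar at the list's median and the number of members in brackets. The medians run from -0.321 for goblet cell markers to 0.295 for immediate early genes, while epithelial identity, immune and stromal genes centre near 0.

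Genes that mark the crypt base stem cell were higher in the Ki67-low fraction. Of 48 measured markers 42 had a difference above 0 and 30, 62.5%, lay higher without overlap, against 18.2% of all genes, with a median of 0.249. Without adjustment, 15 higher and 0 lower had a limma p under 0.05, against 2.39% of all genes higher, and 0 passed with adjustment over all genes. The receptors and surface proteins of the list had 11 of 18 higher without overlap, the transcription factors and RNA-binding proteins 7 of 10, and the secreted proteins and enzymes 12 of 20. The mean level was 7.88 and 7.92 on the Ki67-high arrays and 8.05 and 8.30 on the Ki67-low arrays, so that Ki67-low replicate 2 stood farther from replicate 1 than replicate 1 did from the Ki67-high arrays. The median was 0.159 without Ki67-low replicate 2 and 0.43 without replicate 1.

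Sp5, a transcription factor induced by Wnt signals, measured 5.34, 5.22, 6.04 and 6.06. Igfbp4, a secreted binding protein of insulin-like growth factors, measured 7.90, 8.23, 8.66 and 8.94. Tnfrsf19, a Wnt-induced receptor also called Troy, measured 6.22, 6.22, 6.56 and 7.0. Each had both Ki67-low arrays above both Ki67-high arrays, with differences of 0.77 ± 0.13, 0.74 ± 0.14 and 0.56 ± 0.15 (SE), of which that of Sp5 was the tightest. Slc12a2, an ion cotransporter of crypt base cells, measured 11.25, 11.26, 11.52 and 11.70. Sox9, a transcription factor of the crypt base, measured 8.94, 8.92, 9.33 and 9.70. Olfm4 and Ascl2, a secreted protein and the Wnt-driven regulator of stem cell identity, overlapped between groups at 12.47, 12.55, 12.54 and 12.67 and at 8.29, 7.94, 8.29 and 8.53. These 2 were chosen after their values were seen, and show that not every stem cell marker separated the fractions.

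Targets and feedback genes of Wnt signalling had a median of 0.243, and of 0.138 without Ki67-low replicate 2. Of their 31 members 26 lay above 0 and 19, 61.3%, higher without overlap, against 18.2% of all genes. In common with the stem cell markers they have 8 genes, Lgr5, Tnfrsf19, Cd44, Ascl2, Sp5, Sox9, Rnf43 and Znrf3, so the 2 lists are not separate evidence. Ephb3, the ephrin receptor that helps to hold cells at the crypt base, measured 7.43, 7.59, 8.13 and 8.55. The Wnt ligands, receptors and effectors themselves centred at 0.022. Without overlap, 11 of 45 lay higher and 10 lower, 24.4% and 22.2%, near the 18.2% and 20.2% of all genes. Lgr4, the relative of Lgr5 that is expressed throughout the crypt, measured 9.78, 9.79, 10.06 and 10.03. Tle3, a corepressor of the Wnt pathway, measured 7.27, 7.26, 7.50 and 7.86.

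Markers proposed for reserve or quiescent stem cells were split. Over 16 measured genes the median was -0.019, with 7 above 0 and 9 below 0. Of these, 6 lay higher and 3 lower without overlap, 37.5% and 18.8%, against 18.2% and 20.2% of all genes. Clu, a marker of regenerating crypt cells, measured 4.79, 4.89, 5.34 and 5.68. Prox1, a transcription factor of enteroendocrine cells and stem cells, measured 4.84, 4.43, 5.32 and 5.47. Msi1, an RNA-binding protein, measured 7.76, 7.99, 8.11 and 8.58. These 3 lay higher on both Ki67-low arrays at unadjusted p-values of 0.00239, 0.011 and 0.0265, and none passed over all genes. They were named for the smallest p-values of the list, while the lowest difference of a member was -0.281. Msi1, Sox9 and Lrig1 are also members of the stem cell marker list, so the 2 lists are not separate evidence.

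The gene that passed the test was Rdh18-ps (probe set 10367050), a pseudogene of the retinol dehydrogenase family. It measured 3.25, 3.55, 4.89 and 5.19, and the Ki67-low arrays lay 1.34 above the nearest Ki67-high array. The difference was 1.64 ± 0.16 (SE; 95% interval 1.29 to 1.99; limma adjusted p = 0.0219). The Ki67 difference at medium Lgr5 was 0.45 and the difference between the 2 was 1.19 (limma adjusted p of the interaction = 0.0243). The call was lost when only the 4 Lgr5-high arrays were fitted (adjusted p = 0.0805) and without Ki67-high replicate 1 (0.255), Ki67-low replicate 1 (0.109) or Ki67-low replicate 2 (0.459), although the difference stayed between 1.49 and 1.79. It was also lost without Lgr5-medium Ki67-high replicate 1, 2 or 3 (0.0896, 0.0841 and 0.0594). Rdh1, a retinol dehydrogenase gene of the same family, measured 3.79, 3.17, 4.65 and 4.50, at an unadjusted p of 0.000174, and was chosen after its values were seen. Whether the probes tell the pseudogene from its relatives was not tested. Retinol dehydrogenases make retinal, the precursor of retinoic acid.

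Ranked by the gap between groups, 15 genes that lay higher in Ki67-low cells are described here. The ranking took genes that averaged above 5.06 in the higher group and left out predicted genes. Rdh18-ps, with a gap of 1.34 and a Ki67-low mean of 5.04, was thus not ranked. One of the 15, Sp5, is in the Wnt target list, and its values are given above. Klk1b22, a kallikrein-type protease gene of a family of near-identical copies, measured 3.38, 3.69, 5.15 and 5.65 and had the widest gap of the 15, 1.46. Ccn1, a matrix-associated protein induced early after stimulation, measured 8.65, 8.40, 9.82 and 10.45, and Edn1, which encodes the peptide endothelin 1, measured 7.70, 7.49, 8.65 and 9.51. In all 3 the Ki67-low arrays stood clear of the Ki67-high ones, and replicate 2 was the higher of them. Their standard errors were 0.68, 0.56 and 0.69, and the fit takes its spread from all 4 groups. The SD of Edn1 was 1.04 and 1.03 in the Lgr5-medium groups and 0.148 in the Lgr5-high Ki67-high group. Its Lgr5-high Ki67-low arrays, at 8.65 and 9.51, also lay apart.

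Tighter replicates were seen for Rhob, Acot1 and Prss23. Rhob, a small GTPase, measured 6.19, 6.14, 6.98 and 7.0. Acot1, a thioesterase of fatty acyl-CoA, measured 5.34, 5.20, 6.12 and 6.07. Prss23, a serine protease, measured 6.19, 6.18, 6.89 and 6.91. The 2 arrays of a group lay close together in each case, and the differences were 0.83, 0.83 and 0.72. Reg3b, an antimicrobial lectin of the epithelium, measured 10.26, 10.12, 11.39 and 10.94, and its relative Reg3g 10.75, 10.83, 11.53 and 11.34. Pdk4, the kinase that turns off pyruvate oxidation, measured 6.67, 6.36, 7.32 and 8.08.

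The remaining genes of the 15 were Dpysl5, Arntl2, Ces1d, Ceacam10, Ccdc3 and Slit2. Slit2, a secreted guidance protein, measured 4.74, 4.80, 5.44 and 5.72, and Arntl2, a circadian transcription factor, 4.31, 4.44, 5.20 and 5.12. Ces1d, a carboxylesterase, measured 7.10, 6.99, 7.76 and 7.86. Gaps of the 15 ran from 0.631 to 1.46, and Lgr5 itself, with a gap of 0.629, was the next gene by this rule.

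**Figure D4:**
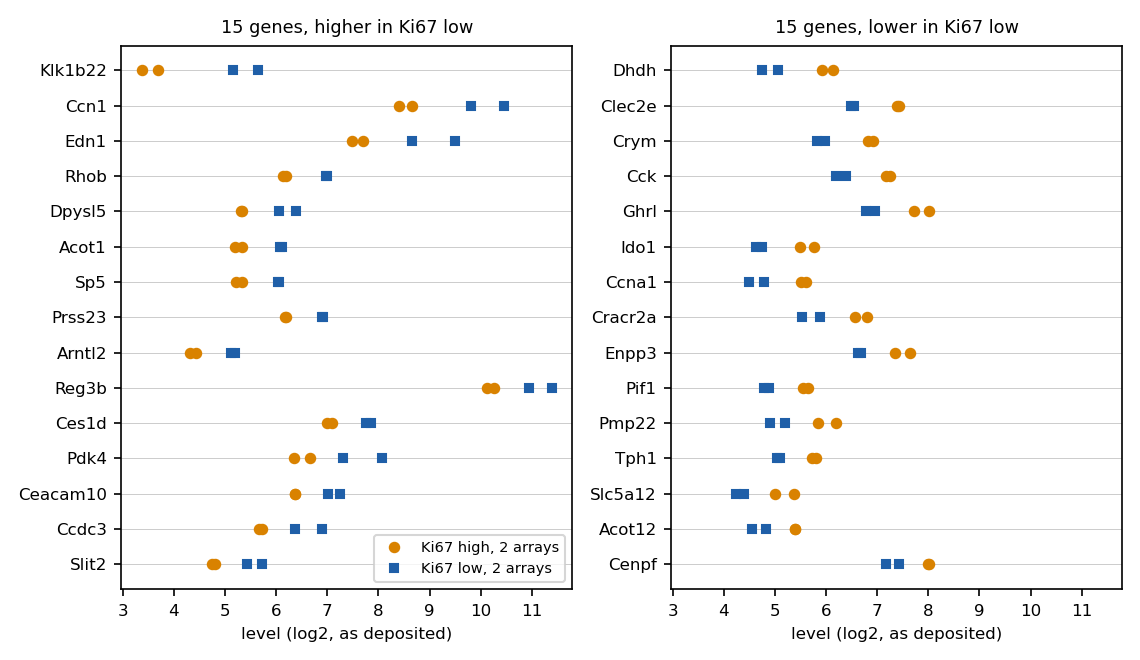
Each row is 1 gene, with its deposited log2 level on the 2 Ki67-high arrays (orange circles) and the 2 Ki67-low arrays (blue squares). Shown are the 15 genes with the widest gap in each direction among those that average above 5.06 in the higher group, predicted genes left out. Circles and squares do not overlap because the genes were chosen for that, and the smallest gap shown is 0.631 on the left and 0.574 on the right.

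By the same rule, with the same limit on level, the 15 genes that lay lower with the widest gaps include Cck, Ghrl and Tph1 of the enteroendocrine list. Cenpf of the mitosis list is also among them. Dhdh, a dihydrodiol dehydrogenase, measured 6.13, 5.93, 4.76 and 5.07. Clec2e, a lectin of the epithelium, measured 7.40, 7.43, 6.54 and 6.49, and Crym, a binding protein of thyroid hormone, 6.92, 6.81, 5.98 and 5.82. The gaps were 0.855, 0.853 and 0.832, each wider than the distance between the arrays of either group. For Clec2e the standard error in the fit was 0.59, and the unadjusted limma p was 0.161.

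Among the same 15 were 3 cell cycle genes. Ccna1, an A-type cyclin, measured 5.52, 5.61, 4.79 and 4.49, a difference of -0.93 ± 0.18 (SE; limma adjusted p = 0.598). Pif1, a helicase that is made in late S and G2, measured 5.64, 5.55, 4.89 and 4.79. Cenpf is given above. The rest of the 15 were Cracr2a, whose values are given below, Ido1, which breaks down tryptophan (5.77, 5.50, 4.64 and 4.74), Enpp3 (7.64, 7.35, 6.69 and 6.63), Pmp22, the transporter Slc5a12 (5.38, 5.01, 4.40 and 4.25) and Acot12. The standard errors of Ido1, Enpp3, Pmp22, Slc5a12 and Acot12 ran from 0.67 to 0.90, and none of the 5 had an unadjusted limma p under 0.05 despite the gap. The same holds for Clec2e and for Tph1, whose unadjusted limma p was 0.0917.

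Enteroendocrine, goblet and Paneth cell markers lay lower in the Ki67-low fraction, tuft cell markers did not, and among the 32 lists the enteroendocrine, tuft and goblet markers held the most genes whose Ki67 difference depended on the Lgr5 level. Ghrl, the hormone ghrelin, measured 8.01, 7.72, 6.96 and 6.78. Cck, cholecystokinin, measured 7.25, 7.18, 6.19 and 6.39, and Gip, the glucose-dependent insulinotropic peptide, 9.08, 8.72, 7.50 and 8.20. The Ki67-low arrays were the lower ones in all 3, with differences of -1.0 ± 0.25, -0.93 ± 0.28 and -1.05 ± 0.37 (SE). At medium Lgr5 the same genes rose in Ki67-low cells, by 2.88, 2.52 and 2.84. The differences between the 2 levels, -3.88, -3.45 and -3.89, passed the interaction test (limma adjusted p = 0.000666, 0.00204 and 0.00371).

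Of 52 measured enteroendocrine markers 43 lay below 0 and 27, 51.9%, lay lower without overlap, against 20.2% of all genes, with a median of -0.196. Hormone genes had 8 of 13 lower without overlap (median -0.30), transcription factors 6 of 15 (-0.17), and granule and other genes 13 of 24 (-0.19). Tph1, the first enzyme of serotonin synthesis, measured 5.72, 5.81, 5.04 and 5.09, Chgb, a granule protein, 7.70, 7.54, 6.88 and 7.07, and Neurod1, a factor of enteroendocrine maturation, 4.75, 4.65, 4.30 and 4.20. At medium Lgr5 36 of the 52 rose and 0 fell, against 2.65% and 0.93% of all genes, with a median of 1.37. Past the interaction threshold were 33 of the 52, all negative, against 1.03% of all genes negative and 0.0106% positive.

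Goblet cell markers had the same opposite signs at the 2 Lgr5 levels. Of 26 measured, 23 lay below 0 at high Lgr5 and 19, 73.1%, lower without overlap, against 20.2% of all genes, with a median of -0.321. At medium Lgr5 21 rose, against 2.65% of all genes, with a median of 1.49. Capn9, a gut-specific protease, measured 5.59, 5.40, 4.83 and 4.73. Tff3, the trefoil peptide of mucus, measured 11.98, 11.90, 11.34 and 11.64, and Clca1, a secreted protease of mucus, 10.89, 10.74, 10.34 and 10.36. Each had the 2 Ki67-low arrays below the others, with differences of -0.71, -0.46 and -0.47. The interaction passed for 18 of the 26, all of them negative, against 1.03% of all genes negative. Among them were Capn9 (-2.72), Sytl2 (-2.35) and Bcas1 (-2.10). The median at high Lgr5 was -0.468 without Ki67-low replicate 2 and -0.209 without replicate 1.

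Paneth cell markers lay lower too, with a median of -0.229 and with 0 at an unadjusted p under 0.05. Of 18 measured, 10 lay lower without overlap, 55.6%, against 20.2% of all genes. The median was -0.419 without Ki67-high replicate 2 and -0.182 without Ki67-high replicate 1. At medium Lgr5 10 of the 18 rose, against 2.65% of all genes, with a median of 1.06, and 0 had an interaction past the threshold. Pnliprp2, a lipase, measured 9.84, 9.76, 9.14 and 9.27, Itln1, a lectin, 11.11, 10.98, 10.18 and 10.68, and Mmp7, the protease that activates defensins, 10.48, 10.51, 9.76 and 10.16. Only 18 of the 26 genes listed were measured. Tuft cell markers were not lower as a list. Their median at high Lgr5 was -0.012. Of 35 measured, 3 lay higher and 4 lower without overlap, 8.57% and 11.4%, against 18.2% and 20.2% of all genes. At medium Lgr5 28 rose, against 2.65% of all genes, with a median of 2.15. Sh2d6, an adaptor of tuft cells, measured 5.65, 5.53, 5.0 and 5.50, and rose by 3.07 at medium Lgr5, and Plcb2, a phospholipase of taste-like signalling, measured 4.54, 4.30, 4.05 and 4.15 and rose by 2.65. Krt18, a keratin of tuft and other epithelial cells, lay higher at 11.37, 11.34, 11.56 and 11.68. Genes of secretory commitment and early absorptive cells were near the background, with a median of -0.056, 7 of 16 above 0, and 1 higher and 4 lower (25%) without overlap. Of these, Atoh1 and Spdef, which direct cells into the secretory lineages, measured 7.18, 7.15, 6.71 and 6.91, and 6.90, 6.93, 6.42 and 6.80, while Sox4, a transcription factor of early progenitors, lay higher at 7.58, 7.56, 7.73 and 8.05.

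Outside the secretory lists no list held more than 2 genes past the interaction threshold. Vim, the filament protein of mesenchymal and of some other cells, measured 6.35, 6.01, 5.82 and 5.93 and rose by 2.50 at medium Lgr5 (interaction -2.81, limma adjusted p = 0.000861). Cracr2a, a calcium-regulated GTPase, measured 6.81, 6.56, 5.53 and 5.88 and rose by 1.31 at medium Lgr5. Trip13, an ATPase of the mitotic checkpoint and of recombination, was positive: it measured 7.22, 7.16, 7.37 and 7.39 and fell by 0.58 at medium Lgr5 (interaction 0.77, limma adjusted p = 0.0287). Over all genes the interaction passed for 196 (1.04%), 194 of them negative.

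**Figure D5:**
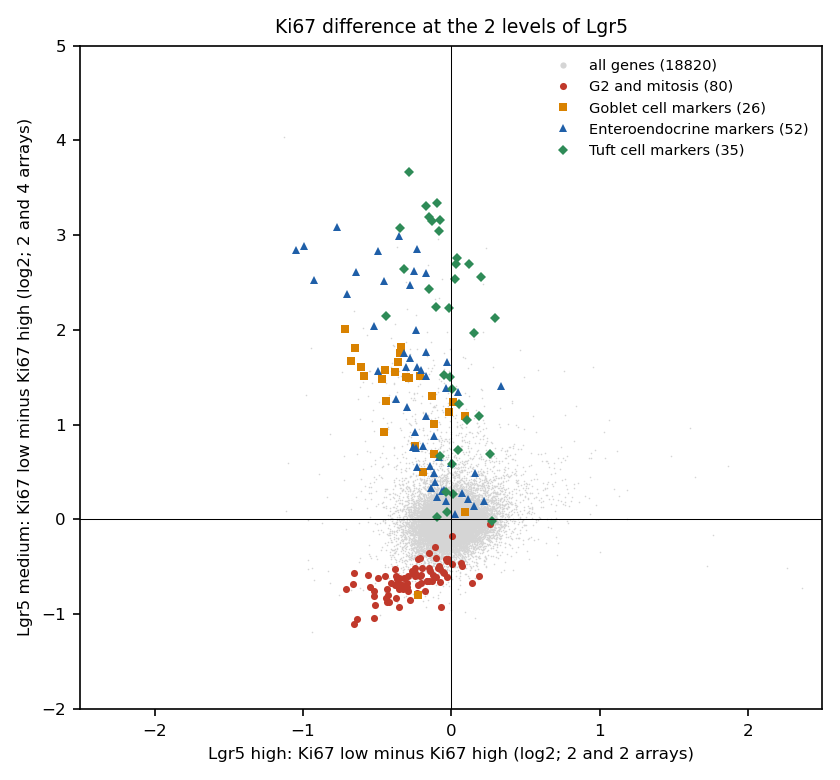
Each point is 1 gene, placed by its difference (log2, Ki67 low minus Ki67 high) at high Lgr5 on the horizontal axis and at medium Lgr5 on the vertical axis, from arrays that the 2 axes do not share. Most G2 and mitosis genes (red circles) lie below 0 on both axes, with medians of -0.245 and -0.62, while most goblet (orange squares) and enteroendocrine markers (blue triangles) lie below 0 at high Lgr5 and far above it at medium Lgr5, and tuft markers (green diamonds) lie near 0 at high Lgr5.

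The mitotic genes kept their direction. At medium Lgr5, 61 of the 80 G2 and mitosis genes fell and 0 rose, against 0.93% and 2.65% of all genes, with a median of -0.62, and 0 had an interaction past the threshold. S-phase genes had a median of -0.06 at medium Lgr5, with 1 of 53 falling and 0 rising, and 0 interactions passed. Stem cell markers had a median of 0.297 there, with 9 of 48 rising and 0 falling. The median of the G2 and mitosis list was -0.245 at high Lgr5, nearer 0 than at medium Lgr5. Cenpf (-0.71 at high and -0.74 at medium Lgr5) and Aspm (-0.66 and -0.69) had nearly equal differences at both levels, unlike the list's median.

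Genes induced early by stress and by the dissociation of tissue lay higher in the Ki67-low fraction. Of 38 measured, 33 were above 0 and 23, 60.5%, lay higher without overlap, against 18.2% of all genes, with a median of 0.295. Ccn2, a relative of Ccn1, measured 4.60, 4.67, 5.24 and 5.43 and had the smallest unadjusted p of the list, 0.000145. Fos measured 8.78, 8.67, 9.31 and 9.68, and Jun 10.67, 10.50, 11.01 and 11.26. The mean level of the list was 7.82 and 7.78 on the Ki67-high arrays, 7.97 on Ki67-low replicate 1 and 8.34 on Ki67-low replicate 2, and over the Lgr5-medium Ki67-high arrays it ran from 7.37 to 8.24. The median was 0.0966 without Ki67-low replicate 2 and 0.446 without replicate 1. The same array also had the highest levels of the S-phase and stem cell lists, and the part of dissociation in those differences was not tested.

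Interferon response and class I genes had a median of 0.187, with 40 of 48 above 0. Of these members, 19 lay higher without overlap, 39.6%, against 18.2% of all genes. Tapbp, the chaperone that loads peptides on class I molecules, measured 8.97, 9.03, 9.37 and 9.41, and Rsad2, an antiviral enzyme, 4.51, 4.34, 4.75 and 4.88. The list's mean level was 6.75, 6.64, 7.0 and 6.79, so that here Ki67-low replicate 1 was the high array, and without it the median was 0.0301. Class II presentation genes had a median of 0.165, and of 0.0514 without Ki67-high replicate 2. Of 13 measured, 6 lay higher without overlap, 46.2%, against 18.2% of all genes, and 0 lower. Cd74, the class II chaperone, measured 9.73, 9.55, 10.27 and 10.59. H2-Ab1 measured 9.58, 9.31, 9.89 and 10.09 and H2-Aa 8.87, 8.47, 9.39 and 9.30. In these 3 class II genes both Ki67-low arrays lay higher. The difference of the leukocyte gene Ptprc ran from -0.329 to 0.302 with an array left out. Which cells carry the class II RNA was not tested.

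Metabolic lists had medians within 0.1 of 0. Oxidative phosphorylation genes had a median of -0.068 with 18 of 57 lower without overlap, 31.6%, against 20.2% of all genes. The median was 0.0095 without Ki67-low replicate 2. Atp5g1, a subunit of ATP synthase, measured 11.94, 11.94, 11.68 and 11.70, and Ndufs7, of complex I, 11.12, 11.01, 10.87 and 10.86. Sterol and fatty acid synthesis genes had a median of -0.071 with 10 of 27 lower without overlap, 37%, against 20.2% of all genes, and 4 higher. Fatty acid oxidation and ketogenesis genes had a median of 0.030 with 8 of 26 higher, 30.8%, against 18.2%, and 3 lower. Glycolysis genes had a median of -0.051. Without overlap, 6 of 27 lay higher and 4 lower, 22.2% and 14.8%, against 18.2% and 20.2% of all genes. Slc2a1, the glucose transporter, measured 7.99, 8.10, 8.38 and 8.43, and Ppargc1a, a coactivator of mitochondrial genes, 8.37, 8.47, 8.17 and 8.07. Plin2, a lipid droplet protein, measured 9.27, 9.16, 9.40 and 9.46, and Idi1, of isoprenoid synthesis, 9.27, 9.19, 9.10 and 9.05. Ribosome biogenesis genes had a median of 0.036 with 15 of 47 higher (31.9%, against 18.2% of all genes) and 2 lower without overlap. Myc, which drives them, measured 9.58, 9.52, 9.70 and 9.99.

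Absorptive enterocyte markers were, of the 32 lists, the one whose mean level differed most between the Ki67-low replicates. The median was -0.071 over 47 genes. Without overlap 5 lay higher and 10 lower, 10.6% and 21.3%, against 18.2% and 20.2% of all genes. The mean level was 8.86 and 8.85 on the Ki67-high arrays, 8.95 on Ki67-low replicate 1 and 8.57 on Ki67-low replicate 2, on either side of the Ki67-high arrays. Without replicate 1 the median was -0.339, and without replicate 2 it was 0.121. Mep1a, a brush border protease, measured 6.49, 6.0, 6.86 and 6.84, and Apoc3, an apolipoprotein, 8.33, 8.18, 8.01 and 7.58.

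Signalling pathways of the crypt niche other than Wnt had medians within 0.1 of 0, with different shares of genes without overlap. Notch pathway genes had a median of -6.7e-05. Without overlap, 8 of 34 lay higher and 6 lower, 23.5% and 17.6%, against 18.2% and 20.2% of all genes. BMP and transforming growth factor pathway genes had a median of 0.00073, with 6 of 34 higher (17.6%) and 3 lower (8.82%) without overlap. Nrarp, a Notch-induced feedback gene, measured 7.12, 6.94, 6.69 and 6.73, and Notch1, the receptor, 8.43, 8.47, 8.62 and 9.0. Bambi, a decoy receptor of the BMP pathway, measured 6.60, 6.45, 5.93 and 6.24, and Bmp7, a ligand, 6.65, 6.53, 6.81 and 7.0. Genes of the epidermal growth factor receptor and its feedback had a median of 0.086, with 11 of 30 higher (36.7%, against 18.2% of all genes) and 4 lower without overlap, and the median was 0.0227 without Ki67-low replicate 2 and 0.19 without replicate 1. Etv4, a transcription factor at the end of that pathway, measured 4.29, 4.17, 4.55 and 4.64, Spry1, a feedback inhibitor, 7.02, 6.78, 7.22 and 7.73, and Egfr, the receptor, 8.27, 8.39, 8.10 and 8.13. Ephrins and their receptors had a median of 0.021 with 8 of 21 higher (38.1%) and 2 lower without overlap, and 0.0626 without Ki67-high replicate 2. Epha7, a receptor, measured 3.67, 3.75, 4.26 and 4.53. Genes of the unfolded protein response and secretory pathway had a median of -0.042. Of 35 measured, 13 lay lower without overlap, 37.1%, against 20.2% of all genes. Xbp1, the transcription factor of that response, measured 10.10, 10.15, 9.95 and 9.72. Kdelr3, which returns proteins to the endoplasmic reticulum, measured 5.29, 5.31, 4.90 and 4.58, and Sdf2l1, a chaperone partner, 8.63, 8.62, 8.45 and 8.15.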

How the data were processed

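Samples of the series are 10 arrays in 4 labelled groups. The deposited values, read as log2, number 35556 on each array, 1 for each probe set, as the authors left them. MAS5 and GCOS appear in the submitters' processing notes, with no role. For background correction, normalization and log base the sources used here give nothing, and the values, from 1.16 to 13.8, were taken as log2. Array medians lay between 4.23 and 4.40, so no further normalization was applied. Depth does not apply to arrays, and their number limits the precision. Names came from the platform annotation, checked against RefSeq GRCm38.p6: 21218 probe sets have 1 symbol, 1881 several and 12457 none here. The probe set with the highest mean represented each of 18820 genes. Limma 3.58.1 in R 4.3.3 (lmFit, eBayes) fitted 1 mean per group to all 10 arrays with 6 residual degrees of freedom. Benjamini-Hochberg adjustment ran over all genes, with a threshold of 0.05. The fit was tested on simulated data. No block was used: the labels name no pairing, and same-numbered Lgr5-high samples did not deviate together (r = -0.0097 across genes). With only 2 such pairs this cannot show whether the samples are paired.

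The members and the 32 gene lists were chosen with earlier results of these data known, so no list is independent evidence. Of 1237 list entries 1109 were measured. Genes to be named were, by rule, those past the threshold, the 15 with the widest gap in each direction whose higher group averages above 5.06 and no predicted genes, up to 5 members of smallest p from each list, Lgr5, Mki67 and the defining cell type markers. Promoter windows were those of the 6 members of smallest p with a match, after the promoters of a single chromosome had been left out. Alternatives tried were median centring, quantile normalization, fits to the 4 Lgr5-high arrays alone, an intensity trend with a robust prior, array weights, the replicate block, leaving out the dimmest 30% of genes, every row of the table, means over probe sets, leaving out each array, a minimum gap of 0.2, an unadjusted threshold and, added after the data were seen, leaving out genes of the X and Y chromosomes.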

Additional observations from a re-analysis of the deposited data

Results flagged for a closer look

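The Ki67 difference at high Lgr5 differed from that at medium Lgr5, by the interaction test with an adjusted p under 0.05, for 19 of the genes named above. It was positive for Rdh18-ps (1.19) and Trip13 (0.77). It was negative for the enteroendocrine genes Gip (-3.89), Ghrl (-3.88), Cck (-3.45), Chgb (-3.26), Tph1 (-3.08) and Neurod1 (-2.97). It was negative for the goblet genes Capn9 (-2.72), Sytl2 (-2.35), Bcas1 (-2.10), Clca1 (-1.95) and Tff3 (-1.38) and for the secretory regulators Atoh1 (-2.02) and Spdef (-1.81). The tuft genes Sh2d6 (-3.42) and Plcb2 (-2.97), and Vim (-2.81) and Cracr2a (-2.29), were negative as well.

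Among 28 genes and lists examined at medium Lgr5, 1 had a lone array in the group of 4 Lgr5-medium Ki67-high arrays. Bcas1 measured 5.70 on replicate 1 and between 5.51 and 5.54 on the other 3. Chance gives such a lone value in about 1 of 20 groups.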

How the results depend on the processing

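Over the 4 Lgr5-high arrays alone, with the replicate number as a block, or over every row of the table, 0 genes were called at high Lgr5 in place of 1, and 853 without adjustment. Leaving out each array gave 0 to 4. Without Ki67-high replicate 2 the 4 were Rdh18-ps and the Y-linked genes Eif2s3y, Kdm5d and Uty. Without genes of the X and Y chromosomes, a setting added after the data were seen, 1 was called. At medium Lgr5 the 674 calls became 1184 with median centring, 352 with the replicate block, 2953 without adjustment and 264 to 779 with an array left out. The 196 interaction calls became 299 with array weights, 128 with the replicate block, 124 over every row, 1520 without adjustment and 79 to 292 with an array left out. The replicate numbers are shared in the labels, which do not say whether same-numbered samples are paired. Genes without overlap numbered 6089 higher and 6954 lower over every row, and 366 and 367 with a gap of at least 0.2. They were not counted with an array left out, since 1 array against 2 is another quantity.

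With an array left out, the median difference of the G2 and mitosis genes ran from -0.312 to -0.217, of S-phase genes from 0.14 to 0.278 and of stem cell markers from 0.159 to 0.43, with no change of sign. Medians that changed sign with an array left out were those of the Notch (-0.0683 to 0.0363), BMP (-0.0503 to 0.047), Wnt ligand and receptor (-0.00442 to 0.0289), cyclin-dependent kinase inhibitor (-0.0438 to 0.0348), histone (-0.195 to 0.00434), reserve stem cell (-0.0342 to 0.0461), oxidative phosphorylation (-0.163 to 0.00948), glycolysis (-0.0814 to 2.5e-05), fatty acid oxidation (-0.0609 to 0.11), sterol synthesis (-0.113 to 0.011), enterocyte (-0.338 to 0.121), tuft (-0.108 to 0.106), secretory commitment (-0.167 to 0.0215), epithelial identity (-0.00864 to 0.0803), immune (-0.0859 to 0.0229) and stromal (-0.0643 to 0.0328) lists. Medians near 0 that kept their sign but moved by over 1.5 times were those of ribosome biogenesis (0.0158 to 0.0712), the unfolded protein response (-0.0697 to -0.00957) and G1 cyclins (0.0466 to 0.0968). Genes that changed sign were Top2a (-0.0664 to 0.0212), Cdk6 (-0.0467 to 0.396), Epcam (-0.0504 to 0.0983), Ptprc (-0.329 to 0.302), Sema7a (-0.455 to 1.70), Stox2 (-1.21 to 0.561) and Reg3a (-0.497 to 0.956). Under other settings the Notch median was 0.0138 (centred), 0.0112 (quantile), 0.0301 (without the dimmest 30% of genes) and 0.00651 (mean over probe sets), the tuft median 0.00144 (centred), the epithelial identity median and the difference of Epcam both -0.000586 (quantile), and the difference of Ptprc 0.000382 (centred) and 0.0122 (quantile). Some genes kept their sign but moved in size under settings that kept all arrays. The difference ran from -0.422 to -0.123 for H2bc4, -0.307 to -0.106 for Ppargc1a and -0.444 to -0.207 for Cdkn1b. For Bmp7 it ran from 0.175 to 0.331, for Prss23 from 0.526 to 0.731 and for Itln1 from -0.615 to -0.475. The causes were not tested. With 2 arrays a side and no background values used, small differences and genes of low level have the least support.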

Other observations

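A few genes differed strongly between the 2 Ki67-low arrays. Sema7a, a membrane-anchored semaphorin, measured 7.15, 6.5, 8.52 and 6.37, Stox2 5.44, 5.79, 4.40 and 6.17, and Reg3a, an antimicrobial lectin, 6.40, 6.11, 7.21 and 5.76. In each the Ki67-low arrays lay on either side of the Ki67-high arrays. They were picked for the size of this difference, with their values known.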
